A study of Mus musculus with 32 samples.

Results

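The MAP kinase phosphatases of the DUSP family were followed across the macrophage response to lipopolysaccharide (LPS), a component of the bacterial wall that activates Toll-like receptor 4. The family is represented by 10 genes, listed by name: Dusp1, Dusp2, Dusp4, Dusp5, Dusp6, Dusp7, Dusp8, Dusp10, Dusp14 and Dusp16. They are 10 of 25067 genes with a named transcript in the deposited count table, and all 10 passed the expression filter that left 11282 genes for testing. RNA-seq was performed in bone marrow-derived macrophages (BMDMs), macrophages grown for 7 days from marrow of male C57Bl6/J mice aged 6 to 12 weeks in medium conditioned by L929 cells. BMDM-WT came from wild-type mice and BMDM-Nur77-KO from littermates in which a ubiquitously expressed CMV-Cre had deleted the loxP-flanked Nr4a1 gene in all tissues before the Cre was bred out. The labels give this genotype as cre. Nr4a1 encodes Nur77, an orphan nuclear receptor that LPS induces within hours. Each genotype was measured unstimulated (0 h) and after 1, 5 and 18 h of 100 ng/ml LPS, with 4 replicates in each of the 8 groups and 32 libraries in all. The methods describe replicate wells and not the number of animals, so the p-values measure the spread between these samples, which may be technical.

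MAP kinases (ERK, JNK and p38) are switched on when a threonine and a tyrosine next to each other in the activation loop are phosphorylated, and the DUSP phosphatases switch them off by removing both phosphates. Many DUSP genes are themselves transcribed in response to MAP kinase activity, which closes a negative feedback loop. The members differ in where they act and on which kinase. Dusp1, Dusp2, Dusp4 and Dusp5 encode inducible nuclear enzymes, Dusp6 and Dusp7 encode cytoplasmic enzymes selective for ERK, and Dusp8, Dusp10 and Dusp16 encode enzymes that prefer JNK and p38. Dusp14 encodes a small phosphatase without the kinase-interaction domain of the others. In macrophages, Dusp1 is best known for ending p38 and JNK signalling after Toll-like receptor stimulation.

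Depth was 8742362 to 15780926 counts on named genes per library (median 11847140). Levels are given in CPM, counts scaled to the TMM-normalized library size, which compares a gene between samples, and in RPKM, which also divides by transcript length and compares genes with each other. Nr4a1 itself stood at 15.5, 18.1, 19.4 and 25.7 CPM in unstimulated BMDM-WT and at 4.44, 4.61, 4.92 and 7.00 CPM in BMDM-Nur77-KO. At 1 h it was 358 to 485 CPM in BMDM-WT and 146 to 243 CPM in BMDM-Nur77-KO, so reads on the gene were reduced and not absent. The count table has 1 value for the gene and does not separate the exons removed from those kept. The 7 macrophage markers examined (Adgre1, Itgam, Csf1r, Cd68, Lyz2, Mertk and Fcgr1) were all above a mean of 1 CPM in every group and summed to 10873 to 18378 CPM. The corresponding sums were 18.2 to 52.6 CPM over 10 neutrophil markers, 4.06 to 40.6 CPM over 6 T cell markers (highest at 5 h), 1.22 to 27.1 CPM over 6 dendritic cell markers, and at most 5.32 CPM for the lists of B cells, mast cells, fibroblasts and erythroid cells. Of the T cell markers, Lck reached 38.4 CPM and Cd247 7.83 CPM, while Cd3d, Cd3e, Cd3g and Cd8a stayed under 1 CPM in every library. The part of these other cell types in the results was not tested. In BMDM-Nur77-KO replicate 1 at 5 h, the counts of Dusp1, Dusp2 and Dusp5 were under those of the other 3 libraries of the group. The main results of the members that rest on this library are also given without it. Results of the comparison lists at 5 h are given only with it.

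The sequence just upstream of the genes was searched for motifs of transcription factors known to act in immediate-early genes. RefSeq (GRCm38.p6, the mm10 build) gave 250 bases before 1 start site each for 9 of the 10 members. For Dusp7, Dusp8, Dusp14 and Dusp16 that start lies 72, 623, 899 and 14435 bases inside the RefSeq span of the gene, which takes in all its transcripts, and the sequence before any start farther out was not searched. The sequences of Dusp1, Dusp8, Dusp5, Dusp6 and Dusp2 are shown because Dusp1 and Dusp8 rose sharply at 1 h and held a full cAMP response element, Dusp5 rose and held a pair of CArG boxes, and neither Dusp6, which fell, nor Dusp2, which rose most, held any of the motifs. Capitals mark matches to the cAMP response element TGACGTCA or its shorter core TGACG on either strand, and to the CArG box, the site of serum response factor. The stretch shown ends before any GENCODE exon of a coding gene, which shortens Dusp1 and Dusp5.
Dusp1 (chr17:26508520.0-26508722.0, minus strand): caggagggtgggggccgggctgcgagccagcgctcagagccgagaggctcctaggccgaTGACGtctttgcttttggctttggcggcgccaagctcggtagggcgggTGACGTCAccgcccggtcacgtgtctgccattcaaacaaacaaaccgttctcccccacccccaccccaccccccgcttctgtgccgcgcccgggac
Dusp8 (chr7:142095285.0-142095534.0, minus strand): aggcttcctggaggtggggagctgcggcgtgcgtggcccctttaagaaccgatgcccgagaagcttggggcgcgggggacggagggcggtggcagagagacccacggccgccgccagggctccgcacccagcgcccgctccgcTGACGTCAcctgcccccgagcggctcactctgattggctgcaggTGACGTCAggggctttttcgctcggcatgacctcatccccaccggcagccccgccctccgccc
Dusp5 (chr19:53528895.0-53529108.0, plus strand): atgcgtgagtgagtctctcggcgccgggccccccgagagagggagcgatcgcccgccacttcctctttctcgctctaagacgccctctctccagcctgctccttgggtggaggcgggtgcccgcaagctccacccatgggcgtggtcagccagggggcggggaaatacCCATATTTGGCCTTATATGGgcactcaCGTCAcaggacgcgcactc
Dusp6 (chr10:99262981.0-99263230.0, plus strand): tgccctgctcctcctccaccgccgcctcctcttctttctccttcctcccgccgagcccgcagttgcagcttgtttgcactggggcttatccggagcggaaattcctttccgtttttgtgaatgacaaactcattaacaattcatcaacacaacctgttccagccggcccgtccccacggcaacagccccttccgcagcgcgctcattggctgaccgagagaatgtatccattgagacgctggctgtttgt
Dusp2 (chr2:127335909.0-127336158.0, plus strand): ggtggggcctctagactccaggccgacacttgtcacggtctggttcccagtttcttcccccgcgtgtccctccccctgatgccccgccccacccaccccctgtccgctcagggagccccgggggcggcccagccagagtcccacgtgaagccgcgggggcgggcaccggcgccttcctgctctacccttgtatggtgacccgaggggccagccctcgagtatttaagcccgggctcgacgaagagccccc

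The full element TGACGTCA began 143 bases before this start of Dusp1 and 107 and 63 bases before that of Dusp8. Of 32851 mouse promoters of this length, 1.55% held the element at least once and 0.03% at least 2 times. The core TGACG, which overlaps the full one, was found in Dusp1, Dusp5, Dusp8 and Dusp16 and in 17.77% of promoters. The adjacent CArG boxes of Dusp5 began 82 and 72 bases before the start, and 1.47% of promoters held at least 1 and 0.018% at least 2. The letters of the AP-1 site TGANTCA (6.75% of promoters), of the Nur77 response element AAAGGTCA (1.34%) and of the NF-kB consensus (7.25%) did not occur in the window searched for any of the 9 members. Dusp2, Dusp6, Dusp7, Dusp10 and Dusp14 held none of the motifs, and of these Dusp2, Dusp10 and Dusp14 were called higher at 1 h in BMDM-WT. Exons of coding genes took 171 of the 250 bases searched for Dusp10 and 100 of those for Dusp14. The lack of a match there thus says little about the promoters of Dusp10 and Dusp14. A match is a description of the letters and does not show that a factor binds there.

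Before LPS, the family was led by the cytoplasmic ERK phosphatases and by Dusp1. In unstimulated BMDM-WT, Dusp6 was at 32.8 ± 6.76 RPKM (SD, n = 4), Dusp1 at 23.1 ± 0.921 RPKM (SD, n = 4) and Dusp7 at 20.7 ± 1.36 RPKM (SD, n = 4), and the libraries of Dusp1 and Dusp7 overlapped. Dusp4 followed at 14.4 ± 1.45 RPKM (SD, n = 4) and Dusp5 at 8.55 ± 1.03 RPKM (SD, n = 4). Dusp16 (2.93 RPKM) and Dusp2 (2.28 RPKM) overlapped in their libraries, and Dusp10, Dusp14 and Dusp8 were lowest at 0.742, 0.283 and 0.157 RPKM. Summed over the 10 genes, the level was 105.9 ± 7.87 RPKM (SD, n = 4), of which Dusp6 made up 30.8%, Dusp1 21.9% and Dusp7 19.5%.

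LPS changed which phosphatase dominated. After 1 h, the sum in BMDM-WT was 1001 ± 59.1 RPKM (SD, n = 4) and Dusp1 alone made up 70.6 ± 1.59% (SD, n = 4) of it. Dusp2 came next at 99.4 RPKM, then Dusp5 and Dusp4 at 71.0 and 70.3 RPKM, whose libraries overlapped. Dusp6 and Dusp7, at 18.8 and 18.2 RPKM, also overlapped. At 5 h the sum was 252 ± 6.33 RPKM (SD, n = 4), with Dusp1 at 66.5%, Dusp2 at 13.5% and Dusp16 at 9.42% of it. At 18 h the sum was 89.5 ± 3.58 RPKM (SD, n = 4), and Dusp1 still made up 71.0 ± 1.73% (SD, n = 4), against 5.26% for Dusp6. These shares describe transcripts, and a bulk sample does not separate the number of cells from the RNA per cell.

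**Figure D1:**
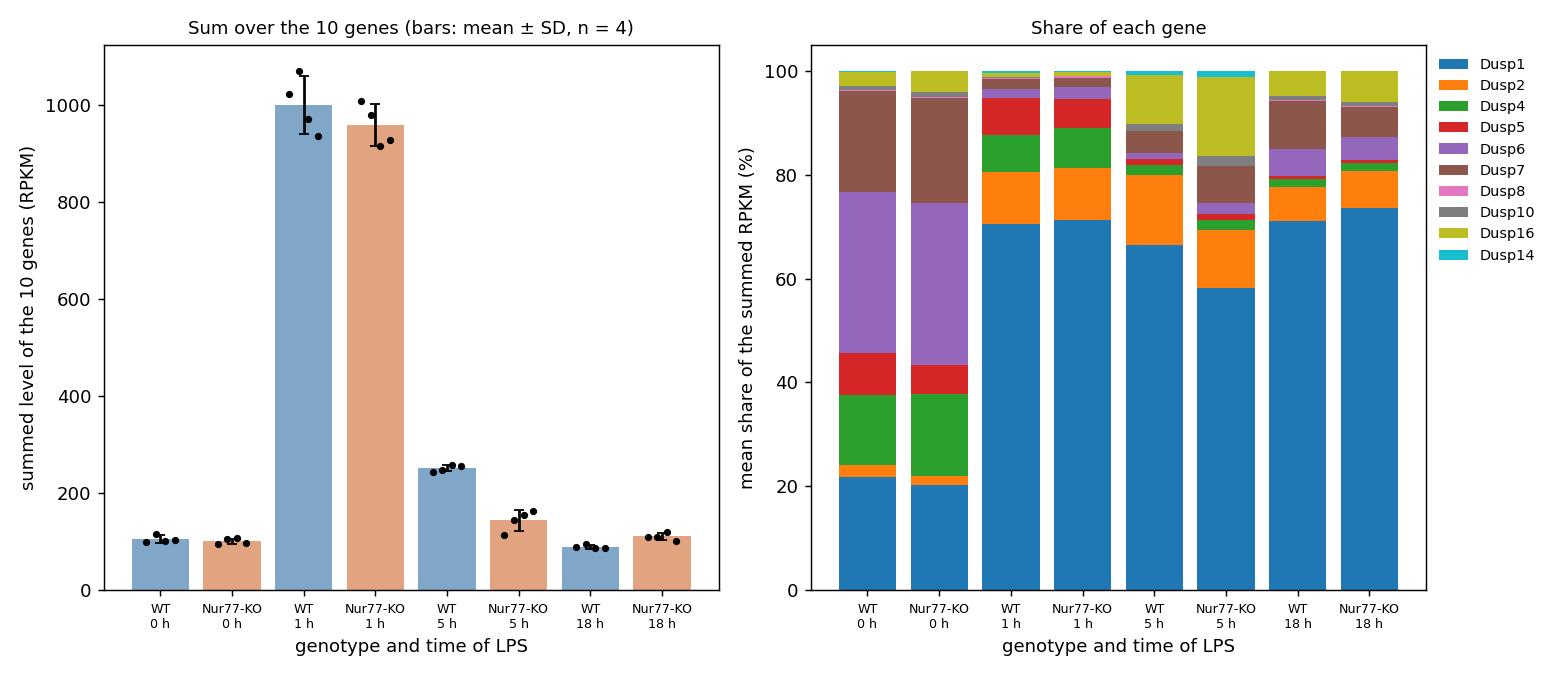
Left, summed level of the 10 genes in RPKM for each genotype and time of LPS (bars, mean ± SD over 4 libraries; points, libraries). Right, mean share of each gene in that sum, in percent. The sum rose from 105.9 RPKM to 1001 RPKM at 1 h in BMDM-WT while the share of Dusp1 went from 21.9% to 70.6%, and at 5 h the sum was 252 RPKM in BMDM-WT and 145 RPKM in BMDM-Nur77-KO.

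Changes were called at an adjusted p under 0.05 in the edgeR quasi-likelihood test, with adjustment over all genes tested. In BMDM-WT, 8 of the 10 genes were higher at 1 h than at 0 h and 1 was lower, where 10.2% and 10.1% of all genes tested were called higher and lower. The median log2 fold change of the members was 2.67, against -0.03 for all genes tested. Dusp8 exceeded the filter's mean of 1 RPKM only at 1 h, and Dusp14 only at 1 h and 5 h. Dusp10 in BMDM-WT exceeded it only at 1 h and 5 h. All of these are among the 8 called higher at 1 h, so their rise is tied to their passing the filter. At 5 h, 5 of the 10 genes were higher and 4 lower than at 0 h (30.0% and 40.0% of all genes), and at 18 h 3 were higher and 5 lower (32.3% and 33.9%). The median of all genes was itself -0.14 at 5 h in BMDM-WT and -0.12 in BMDM-Nur77-KO, and -0.11 from 1 h to 5 h in BMDM-Nur77-KO, and values at 5 h are relative to that shift. From 1 h to 5 h, 2 genes rose and 8 fell (28.8% and 35.9% of all genes), and from 5 h to 18 h 1 rose and 8 fell (35.9% and 33.2%).

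In BMDM-Nur77-KO the same comparisons gave 7 genes higher and 1 lower at 1 h (6.86% and 5.36% of all genes), 5 and 5 at 5 h (32.1% and 39.1%), and 3 and 4 at 18 h (33.7% and 35.5%). From 1 h to 5 h, 2 genes rose and 7 fell in BMDM-Nur77-KO (32.5% and 38.2%), and from 5 h to 18 h 2 rose and 7 fell (34.9% and 33.9%). Dusp10 was the gene not called higher at 1 h in BMDM-Nur77-KO (log2 fold change 0.60, adjusted p = 0.069) that was called in BMDM-WT, and it passed without BMDM-Nur77-KO replicate 1 at 0 h (adjusted p = 0.0016). Dusp10 was also called higher at 18 h in BMDM-Nur77-KO without that library (adjusted p = 0.035). All comparisons with 0 h in a genotype share the same unstimulated libraries.

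**Figure D2:**
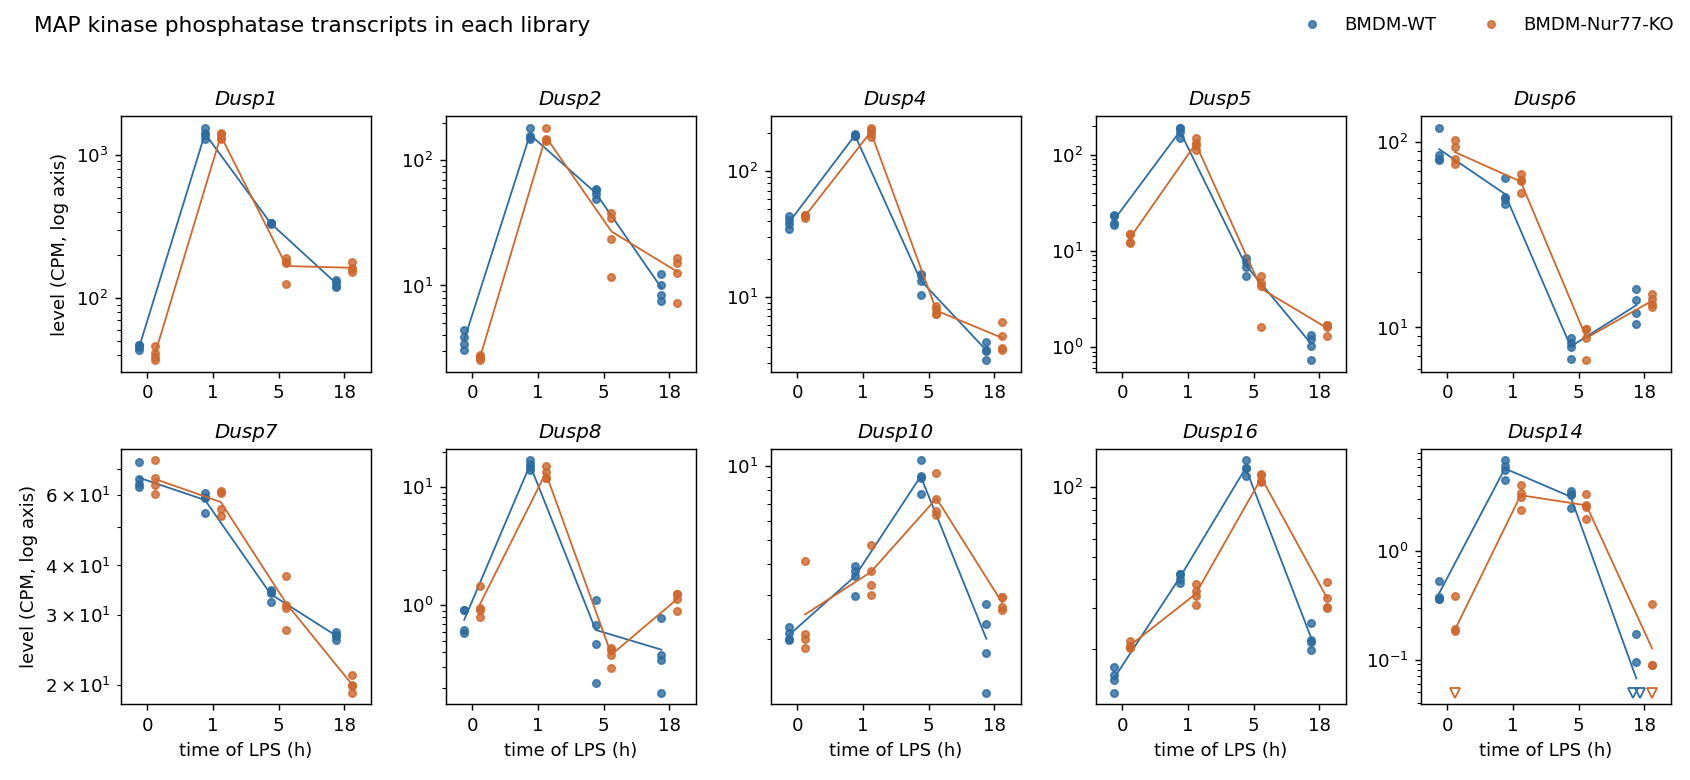
Level of each gene in CPM (log axis) against time of LPS in hours, 1 point for each library and a line through the group means, BMDM-WT in blue and BMDM-Nur77-KO in orange. Open triangles at the bottom of the Dusp14 panel are libraries with 0 counts. Dusp1, Dusp2, Dusp4, Dusp5, Dusp8 and Dusp14 peaked at 1 h, Dusp10 and Dusp16 at 5 h, and Dusp6 and Dusp7 were highest at 0 h.

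Among the nuclear enzymes, Dusp1 had the highest level and stayed above its starting level at all times. In BMDM-WT its libraries stood at 43.3, 45.9, 47.0 and 47.3 CPM at 0 h, at 1288, 1378, 1414 and 1545 CPM at 1 h, at 329, 333, 334 and 336 CPM at 5 h and at 120.3, 122, 129.9 and 134 CPM at 18 h. No library of one time overlapped with those of another. The log2 fold change against 0 h was 4.94 (SE 0.10, where SE is the standard error; adjusted p = 4.8e-26) at 1 h and decreased to 2.86 by 5 h and 1.46 by 18 h, when the mean was 276% of its level before LPS. The RefSeq gene span of Dusp1 (counted as NM_013642) lies on chromosome 17 from 26505591 to 26508472 on mm10, and its exons overlap those of Ergic1 on the other strand by 11 bases.

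Dusp2, a nuclear phosphatase found mainly in immune cells, showed the largest log2 fold change of the 10 genes at 1 h. Its libraries in BMDM-WT were at 3.05, 3.42, 3.86 and 4.42 CPM at 0 h and at 149, 155, 156 and 182 CPM at 1 h, a log2 fold change of 5.44 (SE 0.26, adjusted p = 3.2e-17). At 5 h they were at 49.1 to 58.9 CPM, 34.2% of the peak by their means, and at 18 h at 7.48 to 12.3 CPM. Thus every library at 18 h still exceeded every library at 0 h (log2 fold change 1.38, adjusted p = 4.6e-05). The gene span of Dusp2 (NM_010090) lies on chromosome 2 from 127336159 to 127338377.

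Dusp4, which acts on several MAP kinases, and Dusp5, a nuclear phosphatase selective for ERK, peaked at 1 h and then fell under their starting level. Dusp4 in BMDM-WT was at 34.8, 37.9, 40.9 and 44.0 CPM at 0 h, at 189, 189.7, 195 and 197 CPM at 1 h, at 10.4, 13.5, 14.9 and 15.3 CPM at 5 h and at 3.15, 3.75, 3.80 and 4.35 CPM at 18 h. Every library at 5 h was lower than every one at 0 h, and those at 18 h were lower still. Its log2 fold changes against 0 h were 2.29, -1.54 and -3.38 (adjusted p = 9.9e-18, 1.8e-13 and 2.1e-20). Dusp5 was at 18.6, 19.4, 22.9 and 23.7 CPM at 0 h, at 149, 172, 190.0 and 191 CPM at 1 h, at 5.47, 6.86, 7.77 and 8.51 CPM at 5 h and at 0.732, 1.04, 1.22 and 1.33 CPM at 18 h. The drop of Dusp5 from peak to 18 h was the steepest of the 4 nuclear enzymes in BMDM-WT, since its mean at 18 h was 0.615% of that at 1 h. Its log2 fold changes against 0 h were 3.06, -1.56 and -4.28 (adjusted p = 9.2e-17, 2.0e-09 and 6.7e-17). The gene span of Dusp4 (NM_176933) lies on chromosome 8 from 34807610 to 34819894 and Dusp5 (NM_001085390) on chromosome 19 from 53529145 to 53541809, where 547 exon bases overlap with AC137853.2 on the other strand. The counting ran with HOMER's default settings, and the sources used here do not say how these treat strand, so reads of such pairs cannot be told apart.

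Dusp6 and Dusp7, the cytoplasmic ERK phosphatases, were above their starting level at no time tested. Dusp6 in BMDM-WT was at 80.0, 81.5, 85.9 and 119.9 CPM at 0 h, at 46.3, 49.5, 50.6 and 64.1 CPM at 1 h, at 6.72, 7.80, 8.21 and 8.81 CPM at 5 h and at 10.4, 12.0, 14.1 and 16.2 CPM at 18 h. It was already lower at 1 h (log2 fold change -0.81, adjusted p = 1.8e-05), was lowest at 5 h (-3.54, adjusted p = 9.5e-19) and was the one member to rise again in BMDM-WT from 5 h to 18 h (log2 fold change 0.74, SE 0.17, adjusted p = 0.00024). Dusp7 declined slowly, from 62.9 to 72.6 CPM at 0 h over 54.3 to 60.7 CPM at 1 h (adjusted p = 0.079) and 32.3 to 34.8 CPM at 5 h to 25.9 to 27.3 CPM at 18 h. Its mean at 18 h was 40.1% of that at 0 h (log2 fold change -1.32, adjusted p = 1.8e-15). The gene span of Dusp6 (NM_026268) lies on chromosome 10 from 99263231 to 99267489 and Dusp7 (NM_153459) on chromosome 9 from 106368560 to 106375724.

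The JNK and p38 phosphatases split into an early and a late gene pattern. Dusp8 was near its floor before LPS, at 8 to 12 counts per library (mean 0.756 CPM), reached 14.1, 14.8, 15.8 and 16.9 CPM at 1 h and was back at 0.222 to 1.10 CPM (2 to 9 counts) at 5 h. The rise at 1 h had a log2 fold change of 4.35 (SE 0.20, adjusted p = 1.5e-17), whereas the values at 5 h and 18 h were not called different from 0 h (adjusted p = 0.51 and 0.057). The value at 18 h passed the threshold without BMDM-WT replicate 2 or 4 at 0 h or BMDM-WT replicate 4 at 18 h (adjusted p = 0.044, 0.042 and 0.010). Dusp10 and Dusp16 peaked at 5 h. Dusp16 in BMDM-WT was at 12.9, 14.7, 15.5 and 16.8 CPM at 0 h, at 38.4, 40.1, 42.3 and 42.4 CPM at 1 h, at 111, 121, 121 and 131 CPM at 5 h and at 19.8, 21.4, 21.7 and 25.8 CPM at 18 h. It was higher than at 0 h at every time, with log2 fold changes of 1.44, 3.01 and 0.57 (adjusted p = 4.1e-14, 8.3e-23 and 3.4e-06). Dusp10 was lower in level, at 1.97 to 2.23 CPM at 0 h, 2.98 to 3.95 CPM at 1 h, 7.71 to 10.5 CPM at 5 h and 1.21 to 2.75 CPM at 18 h. Its log2 fold change was 0.77 at 1 h (adjusted p = 0.0092) and 2.12 at 5 h (adjusted p = 1.1e-10), and the libraries at 18 h overlapped with those at 0 h. The gene span of Dusp8 (NM_008748) lies on chromosome 7 from 142079487 to 142095907, with 66 exon bases shared with Gm32786 on the other strand, Dusp10 (NM_022019) on chromosome 1 from 184034381 to 184075636 and Dusp16 (NM_130447, 1 of 2 transcripts in the count table) on chromosome 6 from 134715468 to 134807063.

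Dusp14 rested on few counts. It had 5 to 7 counts per library in BMDM-WT at 0 h, 58 to 97 counts at 1 h (4.55 to 6.89 CPM) and 22 to 30 counts at 5 h (2.51 to 3.55 CPM), and 0 to 2 counts at 18 h. The log2 fold change was 3.80 at 1 h (SE 0.30, adjusted p = 1.2e-11) and 2.94 at 5 h (SE 0.34, adjusted p = 4.6e-09). Since no library at 18 h exceeded 3 counts, the level there was at least 1.52-fold lower than at 0 h and at least 21.4-fold lower than at 1 h, computed against 3 counts per library. Such bounds cover counting error only. The gene span of Dusp14 (NM_019819) lies on chromosome 11 from 84048033 to 84069256.

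**Figure D3:**
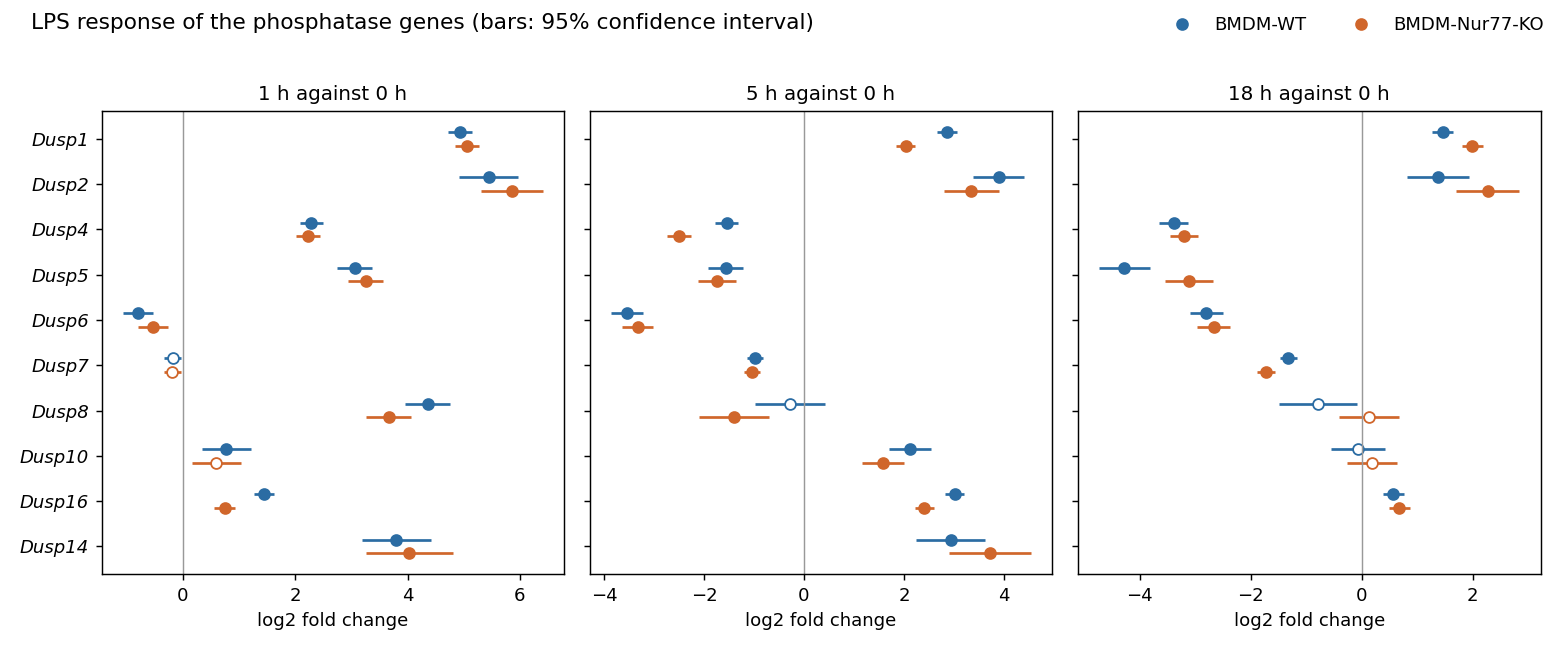
Log2 fold change of each gene at 1, 5 and 18 h of LPS against 0 h in BMDM-WT (blue) and BMDM-Nur77-KO (orange), with 95% confidence intervals; filled points have an adjusted p under 0.05. Dusp14 is not drawn at 18 h, where counts were 0 to 2 in BMDM-WT. Dusp1 and Dusp2 stay above 0 at all times, Dusp4 and Dusp5 change from positive to negative by 5 h, and Dusp6 is negative throughout.

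Nur77 is itself induced within the first hour of LPS, and the genotypes were compared at each time to ask which phosphatases differ when its gene is deleted. By 5 h the Nr4a1 transcript was near its floor in BMDM-WT too, at 0.797 to 1.06 CPM (7 to 9 counts). At 18 h it was at 0.174 to 0.477 CPM (2 to 5 counts). In BMDM-Nur77-KO it had 1 to 7 counts at 5 h and 0 to 5 at 18 h. The genotype difference of Nr4a1 was called at 5 h (adjusted p = 0.042) and not at 18 h (adjusted p = 0.68). Before LPS, 1 of the 10 genes was higher and 1 lower in BMDM-Nur77-KO, where 6.29% and 6.35% of all genes tested were called higher and lower. Dusp16 was at 20.2, 20.3, 20.6 and 21.6 CPM in BMDM-Nur77-KO and at 12.9 to 16.8 CPM in BMDM-WT, with no overlap (log2 fold change 0.46, SE 0.09, adjusted p = 0.00082). Dusp5 was at 12.2, 12.4, 15.0 and 15.2 CPM in BMDM-Nur77-KO, under all 4 BMDM-WT libraries at 18.6 to 23.7 CPM (log2 fold change -0.63, SE 0.15, adjusted p = 0.0058). Dusp2 was at 2.53 to 2.76 CPM against 3.05 to 4.42 CPM, without overlap, and was not called (log2 fold change -0.47, adjusted p = 0.34). For the 8 genes not called, adjusted p was 0.21 or more, and the 95% confidence intervals were -0.35 to 0.03 for Dusp1 and -0.32 to 0.21 for Dusp6. Of the 5 neutrophil markers that passed the filter, 2 were called higher without Nur77 before LPS and 2 after 1 h. The 10 markers summed to 27.4 to 35.9 CPM in BMDM-Nur77-KO against 18.2 to 30.5 CPM in BMDM-WT before LPS, and to 44.2 to 52.6 CPM against 28.5 to 38.3 CPM after 1 h, and their part in these results was not tested.

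At 1 h, when most members peaked, the genotypes were close for Dusp1 and Dusp4. None of the 10 genes was higher in BMDM-Nur77-KO and 1 was lower (3.47% and 3.04% of all genes). Dusp1 was at 1299, 1316, 1405 and 1415 CPM in BMDM-Nur77-KO, within the range of BMDM-WT, and the 95% confidence interval of its log2 fold change was -0.23 to 0.13. Dusp4 was at 187 to 221 CPM (interval -0.11 to 0.29) and Dusp2 at 144 to 180.1 CPM (interval -0.46 to 0.34). The gene called lower was Dusp14, at 2.39, 3.15, 3.46 and 4.11 CPM against 4.55 to 6.89 CPM in BMDM-WT (log2 fold change -0.82, SE 0.22, adjusted p = 0.021). This call was lost without BMDM-WT replicate 1 or 4 or BMDM-Nur77-KO replicate 2, 3 or 4, with an adjusted p between 0.0501 and 0.101. Dusp5 was at 112, 127, 131 and 151 CPM against 149 to 191 CPM (log2 fold change -0.43, adjusted p = 0.056), and it passed the threshold without BMDM-WT replicate 3 (adjusted p = 0.038) or BMDM-Nur77-KO replicate 1 (adjusted p = 0.039). Dusp5 was also called lower by DESeq2 (adjusted p = 0.020). Dusp16 was at 31.0, 33.7, 35.4 and 38.1 CPM against 38.4 to 42.4 CPM, without overlap, and was not called (log2 fold change -0.24, adjusted p = 0.11). When the model was fitted to the libraries at 1 h only, Dusp5 and Dusp16 were both called lower (adjusted p = 0.0035 and 0.036). That fit called 872 of all genes tested higher and 866 lower.

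At 5 h, the 4 nuclear enzymes were all lower in BMDM-Nur77-KO, and no member was higher (10.7% of all genes were called lower and 13.5% higher). The median log2 fold change of the 10 members was -0.48 and that of all genes tested 0.02. Dusp1 stood at 126, 175, 179 and 191 CPM in BMDM-Nur77-KO and at 329, 333, 334 and 336 CPM in BMDM-WT. The BMDM-WT libraries thus lay close together and far above the highest BMDM-Nur77-KO library, and 50.4% of the wild-type mean was left (log2 fold change -0.99, SE 0.09, adjusted p = 2.4e-09). Dusp2 stood at 11.8, 23.7, 34.6 and 37.9 CPM against 49.1, 54.1, 57.5 and 58.9 CPM, with no overlap and more spread in BMDM-Nur77-KO (log2 fold change -1.02, SE 0.21, adjusted p = 0.0010). Dusp4 stood at 7.27, 7.38, 8.07 and 8.44 CPM against 10.4 to 15.3 CPM (log2 fold change -0.80, SE 0.13, adjusted p = 3.9e-05). Dusp5 stood at 1.64, 4.31, 4.70 and 5.50 CPM against 5.47 to 8.51 CPM, so that the ranges touched (log2 fold change -0.80, SE 0.21, adjusted p = 0.0060).

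Replicate 1 of BMDM-Nur77-KO at 5 h had the lowest counts of its group for Dusp1 (1156 against 1862 to 2086), Dusp2 (108 against 282 to 386) and Dusp5 (15 against 45 to 56). It was not among the libraries marked as lying far from the others by the rule used below. Without it, the log2 fold changes were -0.88 for Dusp1, -0.78 for Dusp2, -0.81 for Dusp4 and -0.56 for Dusp5, with adjusted p of 3.2e-10, 0.0015, 9.6e-05 and 0.026. Of all genes tested, 808 were called higher and 689 lower at 5 h without replicate 1, against 1524 and 1202 with it. When the model was fitted to the 8 libraries at 5 h only, Dusp2 and Dusp5 did not pass the threshold (adjusted p = 0.095 and 0.18). In that fit 236 of all genes tested were called higher and 167 lower. The members outside the nuclear class were not called at 5 h. Their log2 fold changes ran from -0.66 for Dusp8 (2 to 9 counts in BMDM-WT and 3 to 5 in BMDM-Nur77-KO) to 0.16 for Dusp6, and the 95% confidence intervals were -0.31 to 0.03 for Dusp16, -0.24 to 0.08 for Dusp7 and -0.19 to 0.52 for Dusp6. The summed level of the 10 genes was 145 ± 21.3 RPKM (SD, n = 4) in BMDM-Nur77-KO, with all 4 libraries (115 to 164 RPKM) under those of BMDM-WT (244 to 258 RPKM). The macrophage markers summed to 12821 to 14927 CPM in BMDM-Nur77-KO and 15051 to 16392 CPM in BMDM-WT at 5 h. Of these 7 markers, 1 was called higher and 2 lower (13.5% and 10.7% of all genes), and their part in this was not tested. In this smaller DUSP sum, Dusp1 made up 58.1 ± 2.11% (SD, n = 4) and Dusp16 15.2 ± 2.88% (SD, n = 4). Without replicate 1 the sum was 155 ± 9.04 RPKM (SD, n = 3), with Dusp1 at 59.0% and Dusp16 at 13.8%.

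At 18 h, the direction for Dusp1 was the opposite. In BMDM-Nur77-KO 3 members were higher and 1 lower (11.7% and 9.79% of all genes). Dusp1 was at 152, 159.7, 162 and 178 CPM in BMDM-Nur77-KO, above the 120.3 to 134 CPM of BMDM-WT (log2 fold change 0.37, SE 0.09, adjusted p = 0.0030). Dusp16 was at 30.0, 30.5, 33.2 and 38.9 CPM against 19.8 to 25.8 CPM (log2 fold change 0.58, SE 0.09, adjusted p = 1.2e-05). Dusp8 was at 0.900, 1.12, 1.25 and 1.25 CPM (11 to 16 counts) against 0.183, 0.348, 0.381 and 0.777 CPM (2 to 9 counts), with no overlap at this low level (log2 fold change 1.38, SE 0.33, adjusted p = 0.0022). Dusp7 was the lower one, at 19.2, 19.9, 20.1 and 21.2 CPM against 25.9 to 27.3 CPM (log2 fold change -0.41, SE 0.08, adjusted p = 0.00034). Dusp2, Dusp4, Dusp5 and Dusp10 had log2 fold changes of 0.43, 0.34, 0.54 and 0.49 that were not called (adjusted p = 0.22, 0.11, 0.24 and 0.14). Dusp4 passed without BMDM-Nur77-KO replicate 4 at 18 h (adjusted p = 0.046). Without Dusp14, which had 0 to 2 counts in BMDM-WT and 0 to 4 in BMDM-Nur77-KO, the median of the members was 0.43, against -0.01 for all genes tested. The summed level of the 7 macrophage markers was also lower at this time, at 10873 to 12340 CPM in BMDM-Nur77-KO and 13804 to 14397 CPM in BMDM-WT, while that of the 6 dendritic cell markers was higher, at 13.5 to 21.8 CPM against 5.18 to 7.13 CPM. The macrophage markers went both ways, with 1 called higher and 4 lower. Both of the dendritic cell markers that passed the filter were called higher. Over all libraries Xcr1 reached 21.2 CPM and Clec9a 16.4 CPM, while Flt3, Zbtb46, Siglech and Cd209a did not exceed 1.13 CPM. The part of either list in these results was not tested.

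**Figure D4:**
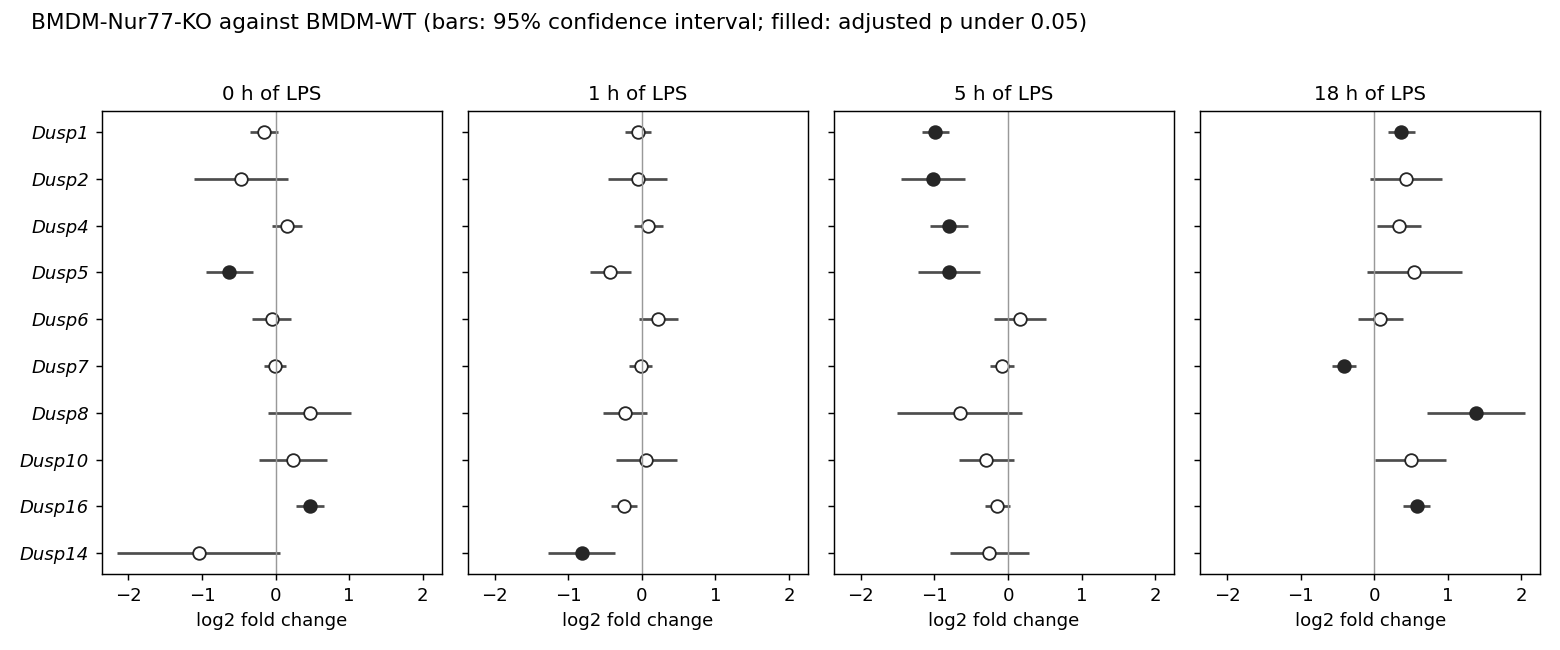
Log2 fold change of BMDM-Nur77-KO against BMDM-WT for each gene at 0, 1, 5 and 18 h of LPS, with 95% confidence intervals; filled points have an adjusted p under 0.05. The 4 nuclear enzymes at the top sit between -1.02 and -0.80 at 5 h, and between 0.34 and 0.54 at 18 h, where Dusp1 alone of the 4 is called. Dusp14 is not drawn at 18 h.

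Whether the response to LPS itself differed between the genotypes was tested through the genotype-by-LPS interaction against unstimulated cells, where a negative value means a smaller rise or a deeper fall in BMDM-Nur77-KO. At 1 h, 1 member had a lower response and none a higher one (0.0266% and 0.0443% of all genes). This was Dusp16, which rose by a log2 value of 1.44 in BMDM-WT and 0.74 in BMDM-Nur77-KO (interaction -0.70, SE 0.13, adjusted p = 0.015). Its level at 0 h was the higher one in BMDM-Nur77-KO and that at 1 h was not. The call was lost without BMDM-WT replicate 3 at 0 h, BMDM-WT replicate 2 at 1 h, BMDM-Nur77-KO replicate 3 at 0 h or BMDM-Nur77-KO replicate 4 at 1 h (adjusted p between 0.052 and 0.060).

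At 5 h, 3 members had a lower response in BMDM-Nur77-KO and none a higher one (1.37% and 1.72% of all genes). For Dusp1 the log2 fold change from 0 h was 2.86 in BMDM-WT and 2.03 in BMDM-Nur77-KO (interaction -0.83, SE 0.13, adjusted p = 0.00019). For Dusp4 it was -1.54 and -2.50 (interaction -0.95, SE 0.16, adjusted p = 0.00060), and for Dusp16 3.01 and 2.41 (interaction -0.61, SE 0.12, adjusted p = 0.0043). Without BMDM-Nur77-KO replicate 1 at 5 h, these interactions were -0.71, -0.97 and -0.62 (adjusted p = 4.3e-05, 0.00063 and 0.0033). The interactions of Dusp2 and Dusp5, the other nuclear enzymes that were lower at 5 h, were -0.55 and -0.18 and were not called (adjusted p = 0.53 and 0.80). For Dusp16 the level at 0 h was the higher one in BMDM-Nur77-KO, and its level at 5 h was not called different between the genotypes.

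At 18 h, 2 members had a higher and 1 a lower response (5.36% and 4.04% of all genes). Dusp1 was higher by 0.53 (SE 0.13, adjusted p = 0.0060) and Dusp5 by 1.17 (SE 0.35, adjusted p = 0.030), the latter fitted on 8 to 14 counts per library in BMDM-WT and 16 to 23 in BMDM-Nur77-KO at 18 h. The call for Dusp5 was lost without BMDM-WT replicate 1 or 4 at 18 h, BMDM-Nur77-KO replicate 2 at 0 h or BMDM-Nur77-KO replicate 1, 2 or 3 at 18 h (adjusted p between 0.0501 and 0.086). Its level at 0 h was the lower one in BMDM-Nur77-KO, and that at 18 h was not called different. Dusp7 had the lower response (-0.40, SE 0.11, adjusted p = 0.018), a call lost without BMDM-Nur77-KO replicate 2 at 0 h (adjusted p = 0.055).

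The change between successive times was also compared between the genotypes, a comparison chosen after the values were seen. Each such value is the genotype difference at the later time less that at the earlier time. It thus reuses the comparisons at single times and is not separate from them. From 1 h to 5 h, 2 members fell further in BMDM-Nur77-KO and none less (1.73% and 2.30% of all genes). Dusp1 dropped to 23.7% of its 1 h mean in BMDM-WT and to 12.3% in BMDM-Nur77-KO (difference of the log2 steps -0.94, SE 0.13, adjusted p = 2.0e-05). Dusp4 dropped to 7.02% and 3.80% (difference -0.89, SE 0.16, adjusted p = 0.0010). For Dusp2 the percentages were 34.2% and 17.5%, with a difference of -0.96 (SE 0.29, adjusted p = 0.054), which passed without BMDM-Nur77-KO replicate 3 or 4 at 5 h (adjusted p = 0.023 and 0.012) and by DESeq2 (adjusted p = 0.047). Without replicate 1, which had the lowest counts of Dusp1 and Dusp2 in that group, the differences were -0.83 for Dusp1, -0.90 for Dusp4 and -0.72 for Dusp2 (adjusted p = 2.6e-06, 0.0010 and 0.065).

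From 5 h to 18 h, 6 members had a higher step in BMDM-Nur77-KO and none a lower one (7.47% and 5.99% of all genes). Among them, Dusp1, Dusp2, Dusp4 and Dusp5 were already called lower at 5 h, and that difference enters their steps. The differences of Dusp2, Dusp4 and Dusp5 at 18 h were not called. Dusp1 fell by a log2 fold change of -1.40 in BMDM-WT and showed -0.04 in BMDM-Nur77-KO (adjusted p = 0.70), where its libraries at 5 h and 18 h overlapped and the value without replicate 1 at 5 h was -0.15 (adjusted p = 0.058; difference with all libraries 1.36, SE 0.13, adjusted p = 5.2e-09). The steps of Dusp2 were -2.52 and -1.07 (difference 1.45, adjusted p = 0.0019), those of Dusp4 -1.84 and -0.70 (difference 1.13, adjusted p = 0.00010), those of Dusp5 -2.72 and -1.37 (difference 1.35, adjusted p = 0.014) and those of Dusp16 -2.45 and -1.73 (difference 0.72, adjusted p = 9.7e-05). Dusp8 rose in BMDM-Nur77-KO from 3 to 5 counts to 11 to 16 counts (log2 fold change 1.53, adjusted p = 0.00023) and had a log2 fold change of -0.51 in BMDM-WT (difference 2.04, SE 0.53, adjusted p = 0.0086), a call lost without BMDM-WT replicate 2 at 5 h (adjusted p = 0.099). In the fit of only the libraries compared, Dusp5 and Dusp8 did not pass (adjusted p = 0.063 and 0.052). Dusp7 and Dusp10 had differences of -0.33 and 0.79 that were not called (adjusted p = 0.055 and 0.079). Dusp7 passed without BMDM-Nur77-KO replicate 3 at 5 h or replicate 4 at 18 h (adjusted p = 0.016 and 0.040), and Dusp10 without BMDM-WT replicate 1 at 18 h or BMDM-Nur77-KO replicate 4 at 5 h (adjusted p = 0.036 and 0.034). Without BMDM-Nur77-KO replicate 1 at 5 h, the differences for Dusp1, Dusp2, Dusp4 and Dusp5 were 1.24, 1.21, 1.15 and 1.11.

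The members were also compared with each other over the 8 group means of log2 CPM, as a description, since all genes share the same libraries. Dusp4 and Dusp5 had the most similar courses of any pair (Pearson r = 0.990), followed by Dusp1 and Dusp2 (r = 0.984) and Dusp10 and Dusp16 (r = 0.975). Dusp6 ran opposite to Dusp16 (r = -0.719). Among all genes tested, those most like Dusp1 were Junb (0.995), Il10 (0.988) and Clcf1 (0.988), and those most like Dusp2 were Zfp36 (0.993), Il10 (0.992) and Csrnp1 (0.992). The genes most like Dusp4 were Dusp5, Fosb (0.989) and Fos (0.988), those most like Dusp5 were Dusp4, Fos (0.988) and Cks2 (0.987), and those most like Dusp8 were Hilpda (0.973), Sde2 (0.965) and Btg2 (0.962). For Dusp16 they were Chic2 (0.987), Med13l (0.981) and Tnip3 (0.980), and for Dusp10 AI504432 (0.980), Stx6 (0.979) and Jarid2 (0.978). For Dusp14 they were Odc1 (0.991), Jag1 (0.980) and Ppp1r10 (0.980). The courses closest to Dusp6 were those of Meaf6 (0.991), Plcg1 (0.990) and Atp23 (0.989), and the ones closest to Dusp7 were those of Glg1 (0.997), Fndc10 (0.995) and Nop16 (0.995).

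The kinases on which the phosphatases act, and other genes listed as inhibitors or regulators of the pathway, were examined for comparison. Of 34 kinases of the MAP kinase cascade tested, 2 were called higher and none lower without Nur77 at 0 h (6.29% and 6.35% of all genes). None was called at 1 h, 2 were higher and 4 lower at 5 h (5.88% and 11.8% of the list, 13.5% and 10.7% of all genes), and 4 higher and 5 lower by 18 h (11.8% and 14.7% of the list, 11.7% and 9.79% of all genes), with median log2 fold changes of -0.04, 0.01, -0.03 and -0.10. At 0 h Rps6ka3, a kinase downstream of ERK, was among the higher ones (0.54). Mapk8, which encodes JNK1, was higher at 0, 5 and 18 h (log2 fold change 0.50, 0.83 and 0.57, adjusted p = 0.022, 0.00033 and 0.0068). Mapk9, which encodes JNK2, was higher at 5 and 18 h (0.35 and 0.38), and Map3k5, a kinase above JNK and p38, was higher at 18 h (0.77, adjusted p = 1.2e-07). Mapk14, which encodes p38 alpha, was lower at 18 h (-0.57, adjusted p = 0.00016), as was Map2k6, a kinase that activates p38 (-1.64, at 0.850 ± 0.137 CPM in BMDM-WT and 0.278 ± 0.202 CPM in BMDM-Nur77-KO, SD, n = 4). Map2k1, Map2k3 and Mapkapk2, kinases above and below ERK and p38, were lower at 5 h (-0.37, -0.40 and -0.37), and Map3k8, a kinase above ERK, at 18 h (-0.29). The values at 5 h include BMDM-Nur77-KO replicate 1. The libraries of Mapkapk2 there spread widely, at 803 ± 205 CPM in BMDM-Nur77-KO against 1040 ± 40.7 CPM in BMDM-WT (SD, n = 4).

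Of 14 other genes listed as inhibitors or regulators of MAP kinase signalling and tested, 6 were called higher and 1 lower without Nur77 at 18 h (42.9% and 7.14%, against 11.7% and 9.79% of all genes). Their median log2 fold change was 0.23. The Gadd45 genes, stress-induced regulators of the kinases above JNK and p38, were among those called higher, so this is not a count of inhibitors alone. Gadd45b was at 276 ± 17.7 CPM in BMDM-Nur77-KO and 153 ± 13.5 CPM in BMDM-WT (SD, n = 4; log2 fold change 0.86). Gadd45g was lower at 5 h (-0.94) and higher at 18 h (0.61), and Gadd45a was higher at both (0.73 and 0.77). At 1 h, Errfi1, an inhibitor of the EGF receptor, was lower (-0.62) and Spry2, an inhibitor of receptor signalling to ERK, higher (0.36). At 0 h 2 of these 14 genes were higher, Spred2 (0.34) and Ppp2ca (0.24), and none lower, and at 5 h 3 were higher and 1 lower (6.29% and 6.35% of all genes at 0 h, 13.5% and 10.7% at 5 h). The other 2 higher at 5 h were the phosphatases Ppm1a (0.29) and Ptpn7 (0.29), and Ptpn7 was lower at 18 h (-0.26).

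Of 11 further dual-specificity phosphatases tested, which mostly do not act on MAP kinases, Dusp23 was called lower without Nur77 throughout the 4 times. Its mean at 0 h was 12.8 CPM in BMDM-WT and 5.68 CPM in BMDM-Nur77-KO, with log2 fold changes of -1.17, -0.95, -0.87 and -1.15 at 0, 1, 5 and 18 h. Dusp12 was higher at 1, 5 and 18 h (0.60, 0.55 and 0.61). Ssh3 was lower at 5 h (-0.55), and Ssh2 (-0.61) and Dusp3 (-0.26) were lower at 18 h. In this list 0 genes were called higher before LPS and 1 at each later time, where 6.29%, 3.47%, 13.5% and 11.7% of all genes were. The number called lower was 1, 1, 2 and 4 at 0, 1, 5 and 18 h, where 6.35%, 3.04%, 10.7% and 9.79% of all genes were. The median log2 fold changes of the list were 0.10, 0.10, -0.01 and -0.08. After LPS in BMDM-WT, 1 of these 11 genes rose and 3 fell at 1 h (10.2% and 10.1% of all genes). At 5 h 3 rose and 8 fell (30.0% and 40.0% of all genes), and at 18 h 3 rose and 4 fell (32.3% and 33.9%). The median log2 fold changes of the list were -0.15, -0.55 and -0.22 at these times. These lists were not tested against the members.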

How the data were processed

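The deposited table holds 1 column for each of the 32 libraries. The authors made strand-specific paired-end mRNA libraries, called bases with CASAVA 1.8.2, aligned reads to mm10 with HISAT2 2.1.0, filtered by mapping quality and used HOMER to count tags per RefSeq transcript, unnormalized. The deposited values are estimated counts, because each mate adds part of a tag and 28.6% of values were not whole. They were rounded here. Transcripts were named through RefSeq GRCm38 (42203 of 42361) or GENCODE (65). The 93 unnamed ones took 0.233 to 1.37% of tags and were left out. The transcript with the highest mean count stood for each of 25067 genes.

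Testing covered the 11282 genes whose group mean exceeded 1 RPKM anywhere in the series. It used the quasi-likelihood test of edgeR 4.0.16 (limma 3.58.1, R 4.3.3) on TMM-normalized counts, fitting the 8 groups of libraries jointly, and p-values were adjusted by the Benjamini-Hochberg method over all genes tested. Samples were not treated as paired by replicate number. The deviations of same-numbered BMDM-WT and BMDM-Nur77-KO libraries from their group means had a median r of -0.0161 (-0.291 to 0.175, 16 pairs). Those of other numbers had a median of 0.0117 (-0.362 to 0.481, 48 pairs). So few and scattered values cannot show whether the samples were paired. The text names all 10 members, up to 3 genes per direction with the lowest adjusted p of each pathway list, and for each member the 3 genes with the most similar group means. Members and lists were chosen with earlier results of these data known.

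Alternatives were DESeq2 1.42.0 as test or for size factors, filterByExpr (12215 genes), only the libraries compared, every transcript row (22735), a limit on the log2 fold change (0.58 between genotypes, 1 for LPS), a replicate block and leaving out each library. Figures and summaries were made with Python 3.11.15, pandas 2.3.3 and matplotlib 3.10.9. Floors and intervals on low counts cover counting error only.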

Additional observations from a re-analysis of the deposited data

Results flagged for a closer look

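In 4 of the 80 sets of 4 libraries (10 genes in 8 groups), 1 library lay far from the other 3, and about 1 in 20 such sets would be marked by chance. Dusp2 was at 180.1 CPM in BMDM-Nur77-KO replicate 1 at 1 h and at 144 to 147 CPM in the others. Dusp6 was at 119.9 CPM in BMDM-WT replicate 2 at 0 h, against 80.0 to 85.9 CPM. Dusp10 was at 4.10 CPM in BMDM-Nur77-KO replicate 1 at 0 h, against 1.84 to 2.09 CPM. Dusp14 was at 0.534 CPM in BMDM-WT replicate 1 at 0 h, against 0.363 to 0.378 CPM.

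The change with LPS differed between the genotypes for 7 of the members, by the test of the difference itself (edgeR, BMDM-Nur77-KO minus BMDM-WT, log2). In each of these tests and each direction, 0.0266% to 7.47% of all genes were called. The share of all genes called in any of the tests was not computed, so the count of 7 has no like share beside it. The calls for Dusp16 at 1 h, Dusp5 and Dusp7 at 18 h and Dusp8 were lost when certain single libraries were left out, as given above. The changes from 1 h to 5 h and from 5 h to 18 h were compared after the values were seen, and Dusp2 and Dusp8 enter through them alone. These changes reuse the libraries of the comparisons at single times. For Dusp1 the difference was -0.83 at 5 h and 0.53 at 18 h against 0 h, -0.94 from 1 h to 5 h and 1.36 from 5 h to 18 h. For Dusp4 it was -0.95 at 5 h, -0.89 from 1 h to 5 h and 1.13 from 5 h to 18 h. For Dusp16 it was -0.70 at 1 h, -0.61 at 5 h and 0.72 from 5 h to 18 h. Dusp5 differed by 1.17 at 18 h and by 1.35 from 5 h to 18 h, Dusp2 by 1.45 and Dusp8 by 2.04 from 5 h to 18 h, and Dusp7 by -0.40 at 18 h.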

How the results depend on the processing

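Most values kept their direction and their side of the threshold: of the single-gene values recomputed under an alternative, 2985 did, 21 were no longer called, 19 became called and 35 changed sign without being called. With a limit on the log2 fold change, no member was higher at 0 h, 1 was higher and 0 lower at 18 h in BMDM-Nur77-KO against BMDM-WT, 0 were lower at 1 h of LPS in either genotype, 0 rose from 5 h to 18 h in BMDM-WT, 1 rose from 1 h to 5 h and 1 from 5 h to 18 h in BMDM-Nur77-KO, and 1 had a higher and 0 a lower response at 18 h; the limit itself removes the smaller changes. At 1 h, 2 members were lower in BMDM-Nur77-KO by DESeq2 (Dusp5 and Dusp14) and 3 in the fit of only the libraries compared (also Dusp16). That fit left 2 lower at 5 h (Dusp1 and Dusp4). The cause was not tested. The replicate block changed no count of calls, with 4 members lower at 5 h under the block. Dusp7 at 0 h changed sign to 0.0148 by DESeq2, 0.0146 with its size factors and 0.0153 in the fit of only the libraries compared.

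When each library was left out in turn, the number of members lower in BMDM-Nur77-KO at 1 h was 0 to 2, of those with a lower response 0 to 1 at 1 h and 0 to 1 at 18 h, with a higher response at 18 h 1 to 2, and with a lower step from 5 h to 18 h 0 to 1. Differences between genotypes that changed sign, none of them called, were Dusp2 (-0.14 to 0.0094), Dusp7 (-0.050 to 0.022) and Dusp10 (-0.084 to 0.15) at 1 h, Dusp6 (-0.13 to 0.10), Dusp7 (-0.068 to 0.036) and Dusp10 (-0.074 to 0.35) at 0 h, and Dusp6 (-0.014 to 0.19) and Dusp14 (-0.26 to 1.71) at 18 h. Among the LPS changes these were Dusp1 from 5 h to 18 h in BMDM-Nur77-KO (-0.15 to 0.027), and Dusp8 at 5 h (-0.69 to 0.0079) and Dusp10 at 18 h (-0.26 to 0.11) in BMDM-WT. Among the interactions they were Dusp7 (-0.053 to 0.051), Dusp10 (-0.32 to 0.13) and Dusp14 (-0.15 to 0.78) at 1 h, Dusp5 at 5 h (-0.35 to 0.061), Dusp4 (-0.0014 to 0.28) and Dusp6 (-0.021 to 0.25) at 18 h, Dusp6 from 1 h to 5 h (-0.17 to 0.041), and Dusp6 (-0.19 to 0.032) and Dusp14 (-0.0031 to 1.96) from 5 h to 18 h. Depth limits Dusp8 and Dusp14, which had under 20 counts per library in several groups, so differences between genotypes there were not detectable unless large.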
